A study of Mus musculus with 17 samples.

Results

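ATP-binding cassette (ABC) exporters of the liver cell were compared between the Lean and Fat mouse lines. The genes were chosen by name from the cDNA array Steroltalk v2, which carries 284 probes for mouse genes. 7 exporters were on the list and all 7 were found, with 1 probe and 3 spots each. They are Abcb11 (probe ST_Mm_002), Abcb4, Abcg5, Abcg8, Abcb1a, Abcc2 and Abcc3. Livers came from 10 Lean and 10 Fat males, aged 14 weeks and fasted for 4 h on a standard diet. Each line is a single inbred line, bred for low (Lean) or high (Fat) body fat percentage over more than 60 generations from 1 base population, and both carry the CBA, JU and CFLP background. Mice are therefore replicates within 1 line per phenotype, and selection cannot be told apart from other differences between these lines. On each of 17 arrays, liver RNA of a Lean mouse and of a Fat mouse was hybridised together under different dyes. The 10 pairs so formed comprise 7 that were repeated with the dyes swapped and 3 that were run once.

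Hepatocytes move bile salts, phospholipid, cholesterol and conjugated compounds into the bile canaliculus through ABC proteins that spend ATP on each transport cycle. Abcb11, the bile salt export pump, carries bile salts. Abcb4 moves phosphatidylcholine to the outer leaflet of the canalicular membrane, and the Abcg5/Abcg8 heterodimer exports sterols. Abcb1a is a P-glycoprotein that exports lipophilic drugs, and Abcc2 exports conjugated organic anions such as bilirubin glucuronides. Abcc3 sits on the opposite, basolateral side and returns organic anions to the blood. The bile acid receptor FXR (Nr1h4) is known to activate Abcb11, and liver X receptors are known to activate Abcg5 and Abcg8.

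The promoter of Abcb11 is shown because this was the exporter that differed between the lines, and those of Abcg5 and Abcg8 because both genes share one stretch. Sequences are from RefSeq on build GRCm38.p6, from 250 bases before the gene start to 50 after it, and 6 of the 7 exporters had such a window. In Abcb11 (chr2:69342567-69342866, minus strand) the capitals mark a match to AGGTCANTGACCT, the inverted repeat with a spacing of 1 base to which FXR is known to bind. In Abcg5 (chr17:84682962-84683261, minus strand) the capitals mark the 209 bases that the Abcg8 window covers on the other strand, since these 2 genes are neighbours that start head to head.
Abcb11: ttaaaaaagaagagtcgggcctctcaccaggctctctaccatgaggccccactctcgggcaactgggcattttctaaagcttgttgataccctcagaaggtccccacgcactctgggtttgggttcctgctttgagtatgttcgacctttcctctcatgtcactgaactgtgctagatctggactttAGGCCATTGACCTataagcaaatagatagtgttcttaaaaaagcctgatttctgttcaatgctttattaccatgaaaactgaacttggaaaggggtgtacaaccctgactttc
Abcg5: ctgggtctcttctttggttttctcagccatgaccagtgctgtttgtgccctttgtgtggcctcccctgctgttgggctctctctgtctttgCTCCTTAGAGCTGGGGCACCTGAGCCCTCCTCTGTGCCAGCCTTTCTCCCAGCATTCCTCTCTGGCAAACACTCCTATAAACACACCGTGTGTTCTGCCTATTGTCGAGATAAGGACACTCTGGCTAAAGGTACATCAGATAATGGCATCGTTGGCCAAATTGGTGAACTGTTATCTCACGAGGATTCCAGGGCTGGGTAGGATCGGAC

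The Abcb11 match began 63 bases before the gene start and had 1 mismatch, T4C, counted from the first base of the motif. On either strand, 27 of 32851 promoter windows of the mouse (0.0822%) held the motif with at most 1 mismatch. Among the 206 array genes with a window, 4 held it, namely Abcb11, Rarg, Saa4 and Slco1b2, and no other exporter among the 6 did. The single repeat unit AGGTCA, which lies within the longer motif, was also found in Abcc2 and occurred in 16.3% of windows. The direct repeat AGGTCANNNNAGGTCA, to which liver X receptors are known to bind, was not in the windows of the 6 exporters with at most 1 mismatch, and 0.25% of windows held it on that criterion. A GATA box, AGATAAG, lies in the stretch shared by Abcg5 and Abcg8, 52 bases before the start of Abcg5 and 64 bases before that of Abcg8 on the other strand. It was present in 3.04% of windows. These matches describe letters in the reference sequence, since binding and the alleles of the lines were not measured.

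Depth differed between arrays. Per array, 34.9% to 78.8% of 855 gene spots exceeded local background in both channels by more than 2 standard deviations of that background. The median background-subtracted signal of gene spots was 23.7 to 858 in the Lean channel and 19.8 to 658 in the Fat channel. All 7 exporters were above background in both lines on every array, apart from Abcg8 in the Fat channel, which was above it on 16 of 17. On 2 arrays single spots of exporters disagreed with the other spots of the same probe. On the array of pair 2 with Lean RNA in Cy3, 80 of 855 gene spots lay in a smear, with a local background over 10 times the array median in at least 1 channel, against 0 or 1 such spots on each of the other arrays. The smear covered 1 of the 3 spots of Abcb4, Abcg8, Abcb1a and Abcc2, with ratios of 2.13 to 4.92 where the other spots averaged 0.06 to 0.11. On the array of pair 8 with Lean RNA in Cy3, 1 spot of each of the same 4 genes had a raised Fat signal, with ratios of -2.34 to -2.02 where the other spots averaged -0.21 to 0.39. Values of these genes are therefore also given without discordant spots, which are those over 1 log2 unit from the median of the probe on that array. There were 76 such gene spots on the first of these arrays, 33 on the second and up to 24 on the others, where none belonged to an exporter.

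The hepatocyte label was checked on marker genes. Each of 6 hepatocyte markers (among them albumin, Alb1, and fibrinogen beta, Fgb) was above background in both channels on 17 of 17 arrays. Markers of macrophages (Msr1), endothelium (Nos3, Vcam1) and ileum or bile duct (Slc10a2, Fabp6) were above it in the Lean channel on at most 5 arrays and in the Fat channel on at most 5. Adipocyte markers (Adipoq, Lep, Retn) were above it on 3 to 12 arrays in Lean and 3 to 11 in Fat. The muscle marker Slc2a4 was above it on all arrays, and Pfkm on 4. None of these 17 marker probes passed the test between lines, with ratios from -0.06 for Vcam1 to 0.30 for Fgb. The label thus stands for whole liver RNA in which hepatocyte genes were well detected. Fewer cells and less RNA per cell cannot be told apart in such samples.

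Abcb11 was expressed at a higher level in the Lean line, and the 6 other exporters did not pass the test. All log2 ratios are of Lean to Fat, where 1 stands for a doubling in Lean. Over 284 probes, 10 (3.52%) had an adjusted p under 0.05 by limma with Benjamini-Hochberg adjustment, 8 of them (2.82%) higher in Lean and 2 (0.704%) lower. Of the exporters, 1 of 7 was among the higher and 0 of 7 among the lower, and 2 of 7 had an unadjusted p under 0.05, against 15.1% of all probes. The median ratio of the 7 exporters was -0.09 and that of all probes was 0.04. 2 of the 7 had a mean ratio above 0, against 69.4% of all probes.

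**Figure D1:**
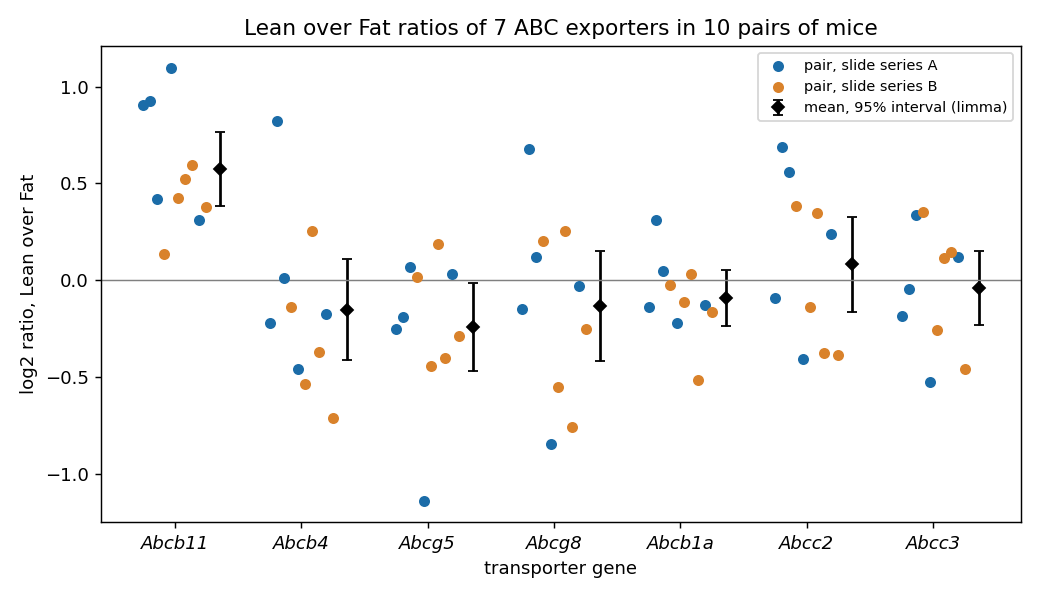
Log2 ratio of Lean over Fat (y axis) for each exporter (x axis). Points are the 10 pairs in order from 1 to 10, blue for slide series A and orange for slide series B, and diamonds are means with 95% limma intervals. All 10 Abcb11 points lie above 0, from 0.14 to 1.10, while each other gene has points on both sides of 0.

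For Abcb11, the log2 ratio was 0.90, 0.92, 0.42, 0.14 and 1.10 in pairs 1 to 5, and 0.42, 0.52, 0.60, 0.31 and 0.38 in pairs 6 to 10. Lean exceeded Fat in 10 of 10 pairs, most in pairs 1, 2 and 5 and least in pair 4. A ratio of 1 sign in all 10 pairs was seen for 8 of 284 probes (2.82%). The mean ratio was 0.57 ± 0.31 (SD, n = 10), a 1.49-fold higher level in Lean (95% interval of the log2 ratio 0.38 to 0.76, limma adjusted p = 0.00187). An exact two-sided sign-flip permutation test over the 10 pairs gave p = 0.00195, the smallest that 10 pairs allow. Abcb11 ranked 4 of 284 by absolute ratio.

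The single channels showed the same difference with more overlap between mice. Log2 normalized intensity of Abcb11 ranged from 9.97 to 11.24 in Lean mice (median 10.93) and from 9.62 to 10.74 in Fat mice (median 10.31). 6 of 10 Lean mice lay above the highest Fat mouse. The means were 10.83 ± 0.40 in Lean and 10.26 ± 0.39 in Fat (SD, n = 10 each).

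**Figure D2:**
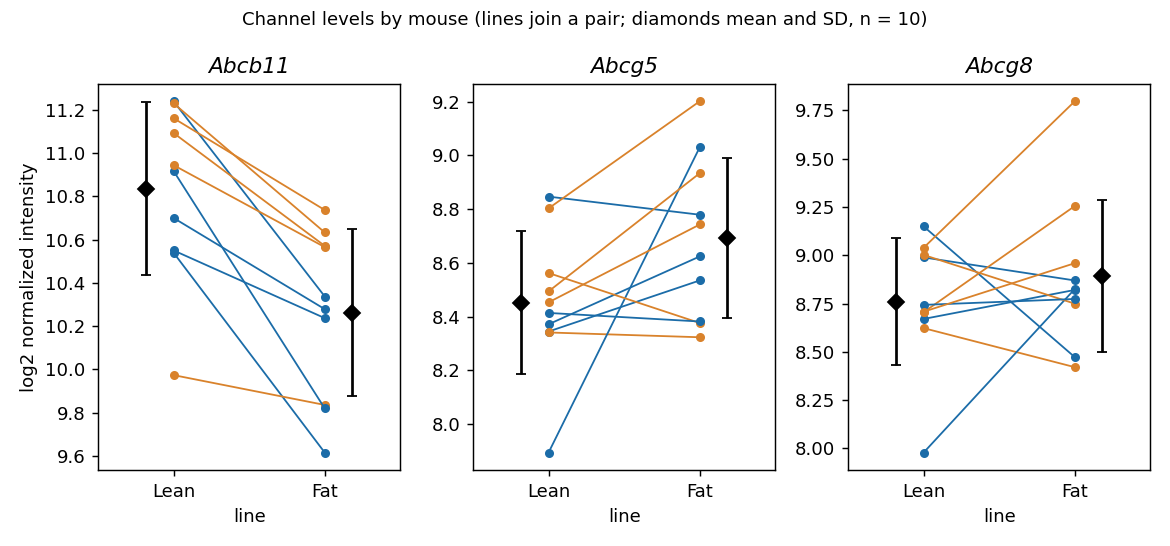
Log2 normalized intensity (y axis) of Abcb11, Abcg5 and Abcg8 in Lean and Fat mice (x axis), with a line for each pair, blue for slide series A and orange for B, and diamonds for the mean and SD of 10 mice. All 10 Abcb11 lines fall towards Fat, and the lines of Abcg5 and Abcg8 run both ways. The y axes differ between panels, and discordant spots are included.

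The higher Abcb11 level in Lean was present in both dye orientations. The mean ratio was 0.73 over 8 arrays with Lean RNA in Cy3 and 0.53 over 9 arrays with Lean RNA in Cy5, and all 17 arrays had a ratio above 0. In the 7 dye-swapped pairs the orientations gave 0.82 and 0.58, a difference of 0.24 (exact two-sided sign-flip permutation p = 0.39; adjusted over 7 exporters 0.53). The 2 arrays of a pair could still be far apart: pair 2 gave 0.38 with Lean in Cy3 and 1.47 with Lean in Cy5. Pair 8 went the other way, with 1.01 and 0.18. This was not limited to Abcb11. Over the gene probes, ratios of the 2 arrays of a dye-swapped pair had a mean r of only 0.21 (-0.02 to 0.41). With LOWESS on gene spots in place of spike-ins, the mean r was 0.55. Slides fell into 2 series by the start of their number, 5 pairs in each. Abcb11 had mean ratios of 0.73 ± 0.34 on series A slides and 0.41 ± 0.18 on series B slides (SD, n = 5 each), a difference of 0.32 that did not pass an exact two-sided permutation test (p = 0.12; adjusted over 7 exporters 0.68). With 252 splits of the pairs, a single exporter at the smallest possible p would not pass after adjustment over the 7. The adjusted test could therefore not show a series difference in 1 exporter. Within series B alone the adjusted p by limma was 0.064.

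Abcb4, the phospholipid exporter, did not pass the test. Its ratio was -0.22, 0.82, 0.01, -0.14 and -0.46 in pairs 1 to 5, and -0.54, 0.25, -0.37, -0.18 and -0.71 in pairs 6 to 10. Lean was lower in 7 of 10 pairs, and pair 2 was the highest. The mean was -0.15 ± 0.44 (SD, n = 10; 95% interval -0.41 to 0.11; limma adjusted p = 0.60). Without discordant spots the ratio was 0.01 in pair 2 and 0.03 in pair 8, and the mean over pairs was -0.19 ± 0.30 (adjusted p = 0.27). The mean was -0.09 without pair 10 and -0.26 without pair 2. With all spots, Abcb4 levels averaged 8.80 ± 0.41 in Lean and 8.95 ± 0.21 in Fat on the log2 intensity scale. The highest Lean level, 9.75 against a Lean median of 8.71, was that of pair 2 and included its smeared spot.

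The sterol exporters Abcg5 and Abcg8 had mean ratios below 0 that did not pass the test. Abcg5 had ratios of -0.25, -0.19, 0.07, 0.02 and -1.14 in pairs 1 to 5, and -0.44, 0.19, -0.40, 0.03 and -0.29 in pairs 6 to 10. Lean was lower in 6 of 10 pairs, and pair 5 was far below the others. The mean was -0.24 ± 0.38 (SD, n = 10), with a 95% interval of -0.47 to -0.01. The unadjusted limma p was 0.040, the adjusted p was 0.32 and the exact sign-flip permutation p was 0.055. Leaving out pair 5 brought the mean to -0.14 (adjusted p = 0.36), a shift of more than 1.5 times. On the intensity scale Abcg5 averaged 8.45 ± 0.27 in Lean and 8.69 ± 0.30 in Fat, and no Lean mouse lay above the highest Fat mouse, although the ranges overlapped.

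Abcg8 followed a like course with 1 exception. Its ratios were -0.15, 0.68, 0.12, 0.20 and -0.85 in pairs 1 to 5, and -0.55, 0.25, -0.76, -0.03 and -0.25 in pairs 6 to 10. Lean was lower in 6 of 10 pairs. The mean was -0.13 ± 0.48 (SD, n = 10; 95% interval -0.42 to 0.15; limma adjusted p = 0.67). Without discordant spots pair 2 had -0.07, pair 8 had -0.44 and the mean was -0.18 ± 0.35 (adjusted p = 0.43). With all spots, the mean was -0.05 without pair 5, -0.06 without pair 8, -0.09 without pair 6 and -0.22 without pair 2.

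None of the 3 exporters of drugs and organic anions passed the test. For Abcb1a the lowest, median and highest ratios were -0.51, -0.12 and 0.31, with a mean of -0.09 ± 0.21 (SD, n = 10) and Lean lower in 7 of 10 pairs (95% interval -0.24 to 0.05; limma adjusted p = 0.58). Both extremes came with a discordant spot: without such spots pair 2 had -0.02 and pair 8 -0.16, and the mean was -0.09 ± 0.09 (adjusted p = 0.27). With all spots the mean was -0.04 without pair 8. Abcc2 ranged from -0.41 to 0.69 with a median of 0.07. Its mean of 0.08 ± 0.41 (SD, n = 10; 95% interval -0.16 to 0.33; adjusted p = 0.76) became 0.05 ± 0.33 without discordant spots, and with all spots Lean was higher in 5 pairs and lower in 5. It was 0.015 without pair 2 and 0.14 without pair 5. Abcc3, the basolateral exporter, ranged from -0.52 to 0.35 with a median of 0.03 and was also split 5 to 5. Its mean was -0.04 ± 0.31 (SD, n = 10; 95% interval -0.23 to 0.15; adjusted p = 0.82), and the sign turned with gene-spot LOWESS, median centring, a wider LOWESS span or the deposited value table. Among these 3 genes the intervals reached up to 0.33, for Abcc2, and down to -0.24, for Abcb1a.

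**Figure D3:**
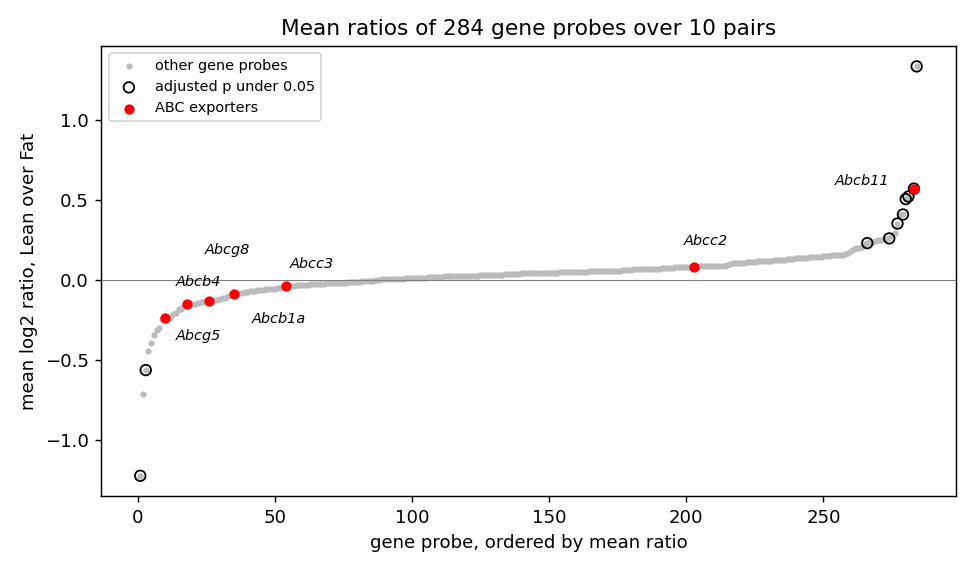
Mean log2 ratio of Lean over Fat (y axis) of all 284 gene probes in rising order (x axis), with the 7 exporters in red and rings around the 10 probes with an adjusted p under 0.05. Abcb11 is the one exporter with a ring, at 0.57, and the other 6 lie between -0.24 and 0.08.

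To set bile salt export against the other exports, the Abcb11 ratio was compared with that of each other exporter on the same arrays, in 6 comparisons. All 6 use the same Abcb11 ratios. Abcb11 was not compared in this way with the other probes of the array, so the share that would pass is not known. Abcb11 minus Abcb4 was 0.72 ± 0.48 (SD, n = 10 pairs) and above 0 in 10 of 10 pairs. Abcb11 minus Abcg5 was 0.81 ± 0.62 and minus Abcb1a 0.66 ± 0.37, each also above 0 in 10 of 10 pairs. For these 3 comparisons the exact two-sided sign-flip permutation p was 0.00195, the smallest possible, and 0.00391 after adjustment over the 6 comparisons. Abcb11 minus Abcg8 was 0.71 ± 0.62 (9 of 10 pairs, exact adjusted p = 0.00586) and minus Abcc3 0.61 ± 0.54 (9 of 10 pairs, exact adjusted p = 0.00938).

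The difference was smallest against Abcc2, at 0.49 ± 0.56, with 8 of 10 pairs above 0 (exact adjusted p = 0.025). In pairs 3 and 4 the Abcc2 ratio was the higher one. This comparison fell short of the threshold with a LOWESS span of 0.75 (0.38, exact adjusted p = 0.061) or without pair 1, 5, 6, 8 or 10 (0.38 to 0.48, exact adjusted p = 0.051 each). Leaving out discordant spots gave differences of 0.52 to 0.81 for the 6 genes, all past the threshold.

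**Figure D4:**
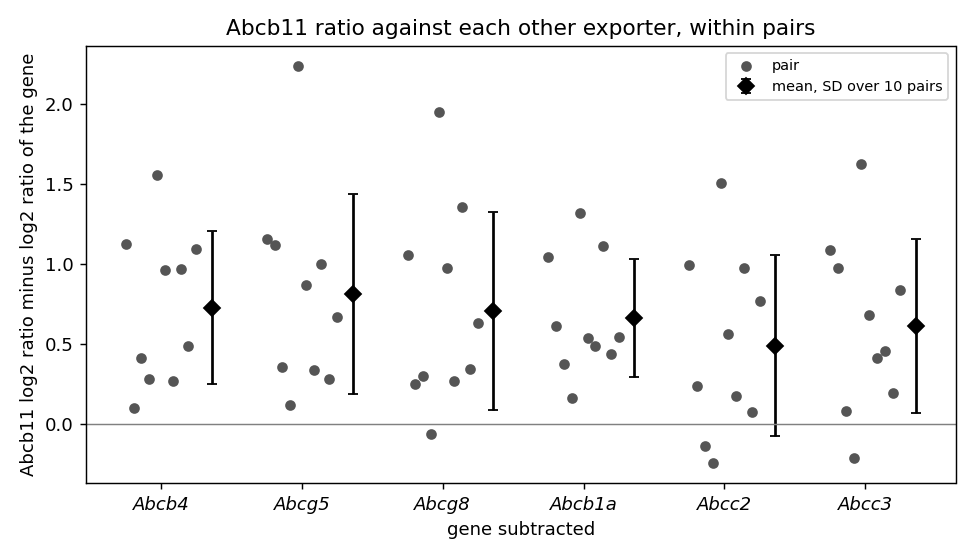
Log2 ratio of Abcb11 minus that of each other exporter (y axis; genes on the x axis) in each of 10 pairs (points, in order from 1 to 10), with the mean and SD as diamonds. Means lie between 0.49 for Abcc2 and 0.81 for Abcg5, and the few points below 0 belong to Abcg8, Abcc2 and Abcc3.

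Several of the 6 other exporters varied together from pair to pair. Of 21 correlations between exporters over the 10 pairs, 9 had an adjusted permutation p under 0.05, all of them among the 15 that did not involve Abcb11. The share of all probe pairs that would pass such a test was not computed, with or without discordant spots. Pearson's r between the 6 others had a median of 0.75 (0.20 to 0.91), against 0.30 over all pairs of the 284 probes, 76.4% of which were above 0. That baseline was not matched for signal. Of the 284 probes, 166 were above background in both channels on most arrays, as all exporters were, and r over those probes alone was not computed. Between Abcb11 and the 6 others, r ranged from -0.64, with Abcg5, to 0.23, with Abcb4, with a median of -0.20, close to the median of -0.22 between Abcb11 and all other probes. Both genes of each correlation were measured on the same arrays, and discordant spots of pairs 2 and 8 entered Abcb4, Abcg8, Abcb1a and Abcc2 together. Without them the median r was 0.77 (0.57 to 0.95) between the 6 others and -0.54 between Abcb11 and these 6, against 0.40 over all probe pairs and -0.30 between Abcb11 and all other probes. With LOWESS on gene spots and all spots kept, r between the 6 others ranged from -0.15, Abcb1a with Abcc3, to 0.93. Of the 9 that passed, the lowest was then Abcb4 with Abcb1a, at 0.39 in place of 0.77. The highest was Abcg8 with Abcc2, at 0.93 in place of 0.91. Between Abcb11 and the 6 others, r was -0.81 to 0.22 with LOWESS on gene spots and -0.12 to 0.77 with median centring. Medians and all-probe values were not computed for these settings.

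For Abcg5 and Abcg8, whose products work as a dimer, r was 0.75 (permutation p = 0.00893, adjusted over 21 correlations 0.027) and Spearman's rho 0.83 (p = 0.00478, adjusted 0.017). Without pairs 5 and 7, the farthest from the Abcg5 median, r was 0.64. It was 0.75 within slide series A and 0.94 within series B, with 5 pairs each. Without discordant spots r was 0.95 (permutation p = 1e-05, the smallest these resamples can give, adjusted 0.00021), as pairs 2 and 8 moved towards the others. The value was 0.67 with LOWESS on gene spots, 0.76 with median centring and 0.95 in the value table.

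**Figure D5:**
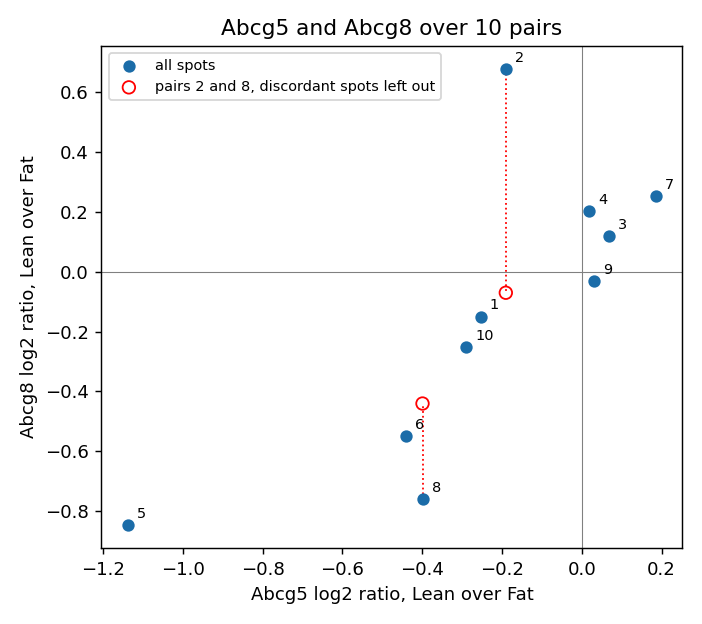
Log2 ratio of Lean over Fat of Abcg8 (y axis) against that of Abcg5 (x axis), with 1 numbered point for each of 10 pairs. The red rings are pairs 2 and 8 without discordant spots, at -0.07 and -0.44 for Abcg8 in place of 0.68 and -0.76, and r is 0.75 with all spots and 0.95 without discordant spots.

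The highest correlation with all spots was between Abcg8 and Abcc2, with r = 0.91 (permutation p = 0.00034, adjusted 0.00238) and rho = 0.92 (p = 0.00049, adjusted 0.00525). It was 0.84 without pairs 2 and 5, 0.93 within series A, 0.86 within series B and 0.79 without discordant spots. Without discordant spots 13 of the 21 correlations passed, among them 8 of the 9. The exception was Abcb4 with Abcg8, at 0.82 with all spots and 0.62 without discordant spots (permutation p = 0.057, adjusted 0.080). Abcc2 with Abcc3 gave 0.68 with all spots (adjusted permutation p = 0.071) and 0.95 without discordant spots (adjusted permutation p = 0.00063). For these 2 genes r was 0.34 with LOWESS on gene spots, 0.55 with a span of 0.75, 0.71 with median centring and 0.92 in the value table. Abcb11 against Abcg5 had an unadjusted permutation p of 0.038 (adjusted 0.073). Its r was -0.64 with all spots and -0.34 without pairs 2 and 5, which were left out together and not singly. It was -0.12 with median centring, -0.81 with LOWESS on gene spots, -0.59 with a span of 0.75 and -0.54 in the value table, and -0.79 and -0.28 within slide series A and B.

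The 5 probes whose ratios ran most like that of Abcb11 over the 10 pairs were Insig2 (r = 0.87), Cyp7b1 (r = 0.84), C9 (r = 0.82), Actb (r = 0.75) and Acat2 (r = 0.71), given as a description. The list was drawn with all spots and was not drawn again without discordant spots. Over all arrays, Actb and Acat2 each had 1 saturated spot, and a second Actb probe was not among the 5. Insig2 encodes a sterol sensor of the endoplasmic reticulum and Cyp7b1 an oxysterol 7-alpha-hydroxylase. A like course between pairs did not go with a like mean: the mean ratio was -1.23 for C9, a complement component, and -0.12 for Cyp7b1, against 0.57 for Abcb11.

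Of the other ABC transporters on the array, none of 6 passed the test. Their median ratio was 0.04, equal to that of all probes to this precision, with Abcg4 at 0.09 and Abcb1b, a second P-glycoprotein gene close to Abcb4 on chromosome 5, at -0.08. Abca1, which loads cholesterol onto apolipoprotein A-I, had 0.03 and was above background on all arrays in both channels. Closely related genes such as Abcb1a and Abcb1b may share signal on cDNA probes, and cross-hybridisation was not tested.

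Nuclear receptors and partners known to regulate these transporters did not pass the test either, with 0 of 12 probes for 11 genes called and a median ratio of 0.01. Nr1h4 (FXR) had -0.14 (SE 0.10, adjusted p = 0.58) and its target Nr0b2 (SHP) 0.01, with Nr0b2 above background on only 7 of 17 arrays in Lean and 10 in Fat. The extremes were Nr1h2 (LXR beta) at 0.15, above background on 11 arrays in Lean and 10 in Fat, and Nr1i3 (CAR) at -0.15. Nr5a2 (LRH-1) had 0.13, with an unadjusted p of 0.025 and an adjusted p of 0.24.

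In bile acid synthesis, 1 of 7 genes was higher in Lean and none was lower, with a list median of 0.02. The called gene was Cyp8b1, the sterol 12-alpha-hydroxylase of the cholic acid branch, with a ratio of 0.52 (SE 0.08, limma adjusted p = 0.00208, higher in 10 of 10 pairs). Its adjusted p was 0.053 with median centring, 0.086 in slide series A alone and 0.064 in series B alone. Cyp7a1, the rate-limiting enzyme of the classic pathway, had 0.15 (adjusted p = 0.55) and was above background on 10 of 17 arrays in Lean and 11 in Fat.

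On the uptake side, 1 of 7 probes for 6 genes was lower in Lean and none was higher, with a list median of -0.12. This was Slco1a4, a sodium-independent carrier of organic anions, at -0.56 (SE 0.12, adjusted p = 0.013, lower in 10 of 10 pairs). It was above background on 12 of 17 arrays in Lean and on all 17 in Fat. The ratio was -1.10 with plain background subtraction, and the adjusted p was 0.074 by the methods' t-test, 0.26 in slide series A alone (-0.38) and 0.068 in series B alone (-0.75). Counting unadjusted limma p under 0.05, 3 of the 7 uptake probes passed, against 15.1% of all probes. Beside Slco1a4 these were Slco1a1 at -0.30 (unadjusted p = 0.0096, adjusted 0.18, lower in 9 of 10 pairs) and Slco1b2 at -0.21 (unadjusted p = 0.025, adjusted 0.24). Both probes of Slc10a1 (NTCP), which takes up bile salts from blood, had ratios below 0, at -0.08 and -0.12, and did not pass (adjusted p = 0.73 and 0.58).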

How the data were processed

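Intensity values per spot and channel, with local background, were deposited by the authors as scanned with Array-Pro Analyzer, before normalization. The table of normalized log2 ratios deposited by the authors (LOWESS on spike-ins, low-quality spots removed) served as an alternative, and its correlation with the ratios used here was 0.43 to 0.98 per array. The intensity columns are headed Smpl and Ref, and were read as the Lean and the Fat channel on every array, which set the direction. Of 8 spiked ratio controls, 6 had a mean of opposite sign in that table, and the reason was not tested. Mean intensities and mean local background were corrected by normexp (offset 50) and normalized to luciferase and calibration spike-ins (span 0.3) with limma 3.58.1 in R 4.3.3. Spots of a probe, then arrays of a pair, were averaged. Limma tested each mean ratio against 0, and two-sided p-values were adjusted by Benjamini-Hochberg over the 284 probes (threshold 0.05). Channel levels were taken from all spots after A-quantile scaling. Permutation tests were exact over 1024 sign patterns, or used 100000 resamples for correlations. Pairs were numbered in deposition order. The model fit was tested on simulated data. The members and the gene lists were chosen with earlier results of these data known. Every exporter was named, and of each list the probes past the test or else the 2 of largest absolute ratio, plus Abca1, Nr1h4, Nr0b2, Nr5a2, Cyp7a1 and Slc10a1, with Slco1a1 and Slco1b2, added after their values were seen. The number of arrays limits precision.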

Additional observations from a re-analysis of the deposited data

Results flagged for a closer look

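The Abcg5 ratio of pair 5, at -1.14, stood apart from those of the other 9 pairs, the lowest of which was -0.44. Its gap to the nearest pair was 0.53 of the whole range, above Dixon's 95% critical value for 10 samples. Both arrays of the pair had it, with -1.23 where Lean RNA was in Cy3 and -1.05 where it was in Cy5. In the same pair Abcg8 had -0.85, its lowest value, and Abcb11 had 1.10, its highest. Of the 7 exporters, this was the one with such a pair, and chance flags about 1 in 20 groups.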

How the results depend on the processing

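Abcb11 kept its direction and an adjusted p under 0.05 in 21 of 22 alternatives and with each pair left out (0.51 to 0.62). The exception was slide series B alone, at 0.41. The number of called probes, 10, was 6 with plain background subtraction (3 higher, 3 lower), 5 with median centring and 5 in the 7 dye-swapped pairs. It was 3 in series A, 2 in series B, 18 with array weights and 7 to 11 with a pair left out. By a t-test over pairs it was 6 after adjustment and 35 before. The study itself did not adjust its t-test. Without background subtraction 15 were called, 53.3% of them higher in Lean, against 80.0%. Abcb11 minus Abcc2 was 0.38 with a span of 0.75 and 0.38 to 0.57 with a pair left out. Abcc2 turned to -0.033 in series B and to -0.011 without the Lean-Cy3 array of pair 2. Abcc3 turned to 0.010 with LOWESS on gene spots, 0.18 with median centring, 0.065 with a span of 0.75, 0.059 in the value table, 0.014 without pair 5 and 0.0068 without pair 10 (range -0.083 to 0.014). With a pair left out, Abcb4 had -0.26 to -0.09, Abcg8 -0.22 to -0.05, Abcb1a -0.14 to -0.04 and Abcc2 0.015 to 0.14. The order of the 6 means that did not pass differed between normalizations, with Abcb4 at -0.03 and Abcg8 at -0.03 under median centring. The causes were not tested. Median background, median spot pixels, smeared or discordant spots and the Lean-Cy3 arrays of pairs 2 and 8 were alternatives chosen after seeing the data. With 5 pairs, the differences between exporters have values and no test. No separate paired analysis was possible because each array already holds a pair.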

Other observations

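The median SD between the 3 spots of an array was 0.04 for Abcb11 and 0.05 to 0.07 for the 6 other exporters, on the log2 ratio scale. The mean gap between the 2 arrays of a pair was 0.64 for Abcb11, 0.52 for Abcb4, 0.47 for Abcg8, 0.61 for Abcc2, 0.35 for Abcc3, 0.30 for Abcb1a and 0.26 for Abcg5, over 7 pairs. On the Lean-Cy3 arrays of pairs 2 and 8 the spots of Abcb4, Abcg8, Abcb1a and Abcc2 disagreed by more than these gaps, with SDs of 1.10 to 2.80. Those spots entered the gaps of these genes. Their largest gaps were in pair 2, at 1.73 for Abcb4, 1.79 for Abcg8, 0.94 for Abcb1a and 1.88 for Abcc2. Abcb11, which had no discordant spot, had a largest gap of 1.08. Mean gaps without discordant spots were not computed. The 2 arrays had the same sign in 7 of 7 pairs for Abcb11, and in 4 or 5 of 7 pairs for the 6 others. For none of the 7 exporters did Lean in Cy3 and Lean in Cy5 differ past the threshold (exact two-sided sign-flip permutation p from 0.078 for Abcc3 to 0.61 for Abcb1a, adjusted 0.53 to 0.61; the smallest p that 7 pairs allow is 0.016). A single exporter at that smallest p would not pass after adjustment over the 7, so the test could not show a dye difference in 1 exporter. The mean ratio was higher with Lean in Cy3 for each of the 7, by 0.09 for Abcb1a to 0.39 for Abcb4.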
